A study of Mus musculus with 62 samples.

Results

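Immediate early genes are switched on within minutes of neuronal firing. A list of 47 activity-induced genes, called immediate early genes here, was followed through 5 regions of the mouse brain after ethanol or saline. The 47 genes were chosen by name from the 56415 genes of the count table, with earlier results of these data known. They cover transcription factors, phosphatases and kinases, RNA-decay and stress proteins, and synaptic or secreted effectors. Poly(A) RNA was sequenced from 16 male C57BL/6J mice aged 8 to 10 weeks. The tissues were cortex (CTX), the dorsal and ventral parts of the hippocampus (dHPC and vHPC), and the dorsal and ventral parts of the striatum (DS and VS). Mice in the acute paradigm received 1 intraperitoneal injection and those in the chronic paradigm 10, given daily. The injection held saline or 2 g/kg ethanol as a 20% solution in saline, and every mouse was killed 4 h after its last injection. A group is defined by its region, its paradigm and its treatment, and the 62 libraries form 20 such groups with 3 or 4 mice in each. A mouse gave between 1 and 5 libraries. All mice were injected, so no group shows the level without handling, and the single time point leaves the first hours after the injection unmeasured.

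Transcription of these genes needs no new protein synthesis. Calcium entry and growth factor receptors activate kinases that phosphorylate factors already bound to their promoters. Among these are CREB at the cyclic AMP response element (CRE) and serum response factor at the CArG box. The Fos and Jun proteins pair as AP-1, the Egr and Klf proteins are zinc-finger factors, the Nr4a proteins are orphan nuclear receptors and Npas4 is a calcium-responsive factor of neurons. These proteins then control a later wave of genes, while the Dusp and Sprouty proteins shut off the MAP kinase signal that induced them, and Arc, Homer1, Nptx2 and Vgf act at synapses or are secreted. Most of the transcripts decay quickly, so their level at a given moment follows the activity shortly before it.

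The promoters of 4 members that differed between groups in the cortex or striatum are shown because they carry the CRE letters that recur in this gene set. Each is the 150 bases before the RefSeq transcription start, read 5′ to 3′ on the gene's strand, with GRCm38.p6 coordinates. The count table used GRCm39, and no position was carried between the builds. Capitals mark the CRE core TGACG on either strand (CGTCA when read on the other strand) and the full CRE TGACGTCA, which holds 2 overlapping cores.
Fos (chr12:85473740-85473889, plus strand): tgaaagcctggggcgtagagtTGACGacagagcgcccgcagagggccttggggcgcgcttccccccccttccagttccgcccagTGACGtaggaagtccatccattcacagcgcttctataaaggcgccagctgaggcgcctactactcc
Nr4a1 (chr15:101266696-101266845, plus strand): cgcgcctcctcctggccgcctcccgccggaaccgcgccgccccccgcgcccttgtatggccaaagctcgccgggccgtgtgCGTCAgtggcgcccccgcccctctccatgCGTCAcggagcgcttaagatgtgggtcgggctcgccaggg
Nr4a2 (chr2:57124004-57124153, minus strand): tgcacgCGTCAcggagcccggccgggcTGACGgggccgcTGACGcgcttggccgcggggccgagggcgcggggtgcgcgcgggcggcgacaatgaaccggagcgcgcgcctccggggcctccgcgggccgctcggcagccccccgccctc
Dusp1 (chr17:26508473-26508622, minus strand): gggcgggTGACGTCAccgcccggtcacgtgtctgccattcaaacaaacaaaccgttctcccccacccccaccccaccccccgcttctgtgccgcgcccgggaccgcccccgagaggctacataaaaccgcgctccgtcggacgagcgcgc

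RefSeq promoter windows were given for 36 of the 47 members, and motifs were searched on both strands in the 250 bases before each start. The CRE core TGACG was found in 23 of the 36 members (63.9%) and in 19.8% of 27025 genes with a window. The full CRE TGACGTCA was found in 6 members (16.7%; Maff, Dusp1, Arl4d, Btg2, Ppp1r15a and Scg2) and in 1.77% of all genes. The Egr-binding sequence GCGGGGGCG was found in 6 members (16.7%) against 2.93% of all genes, and the CArG box in 3 (8.33%; Egr2, Dusp5 and Zfp36) against 1.62%. The AP-1 letters TGANTCA were found in 1 member (2.78%; Csrnp1) against 7.82% of all genes. These are matches of letters in a window of fixed length and are given as a description of the set.

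Total counts on genes ran from 43173748 to 71164766 per library in CTX and dHPC and from 8149628 to 46564992 in vHPC, DS and VS. CTX and dHPC libraries came from another kit and sequencing platform than those of vHPC, DS and VS, so a level difference between these sets of regions cannot be told apart from batch, and every comparison below stays within a region. All libraries were counted as reverse-stranded although the CTX and dHPC kit does not mark strand. Overlaps were read from another annotation of the same assembly, in which 9 members have the same start and end as in the counts. There, exons of 23 members overlap an exon on the opposite strand. The overlap exceeds 20% of the length in that annotation only in Egr4 (21.6%), Dusp5 (22.4%) and Dusp6 (23%). In CTX and dHPC reads from overlapping genes and their antisense partners cannot be told apart. DS chronic saline replicate 2 held no counts on several chromosomes, which removes 9 of the 47 members, and it was left out, so that DS chronic saline rests on 2 mice. The regions carried their labelled markers. The 8 striatal projection neuron genes summed to between 2717 and 9033 CPM (counts scaled to library size) in the striatal libraries, with up to 2988 CPM in 1 dHPC chronic saline library (265.9 to 1079 in the other dHPC libraries). The 6 pallial excitatory neuron genes (Slc17a7, Neurod2, Neurod6, Tbr1, Emx1 and Slc30a3) summed to between 1188 and 2456 CPM in cortex and hippocampus. The same pallial genes summed to between 10.1 and 813.8 CPM in the striatum, higher in most saline than in ethanol libraries, as given beside the striatal results.

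All 47 members passed the filter on low counts in every comparison, and none was at the floor of 3 counts in every library of a group. The levels in saline mice, given as CPM per kilobase of exon, were led by effectors and Egr1. In CTX, Arc averaged 95.1 ± 58.7, the neuropeptide precursor Vgf 83.8 ± 16.2 and Egr1 76.5 ± 33.7 CPM per kilobase (SD, n = 6, acute and chronic saline together), and these 3 do not differ beyond their spread. Arc averaged 143.5 and Vgf 97.3 CPM per kilobase in acute saline CTX, against 46.8 and 70.3 in chronic saline, so their order was not the same in the 2 groups. In the other regions the granin Scg2 ranked highest over all saline mice. It averaged 67.3 ± 5.17 CPM per kilobase in dHPC, 63.9 ± 4.92 in vHPC and 157.4 ± 47.7 in VS (n = 6 each), and 91.6 ± 15.04 in DS (n = 5). In acute saline DS alone Egr1 averaged 102.3 and Scg2 99.7 CPM per kilobase (n = 3). Atf3 and Maff, both bZIP factors, ranked at the bottom in every region, with at most 0.47 CPM per kilobase. Elsewhere levels are CPM with TMM normalization across the libraries of a region, and fold changes are on the log2 scale from edgeR's quasi-likelihood fit. A gene is said to have risen or fallen when its edgeR false discovery rate (FDR, Benjamini-Hochberg over all genes tested) was below 0.1.

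**Figure D1:**
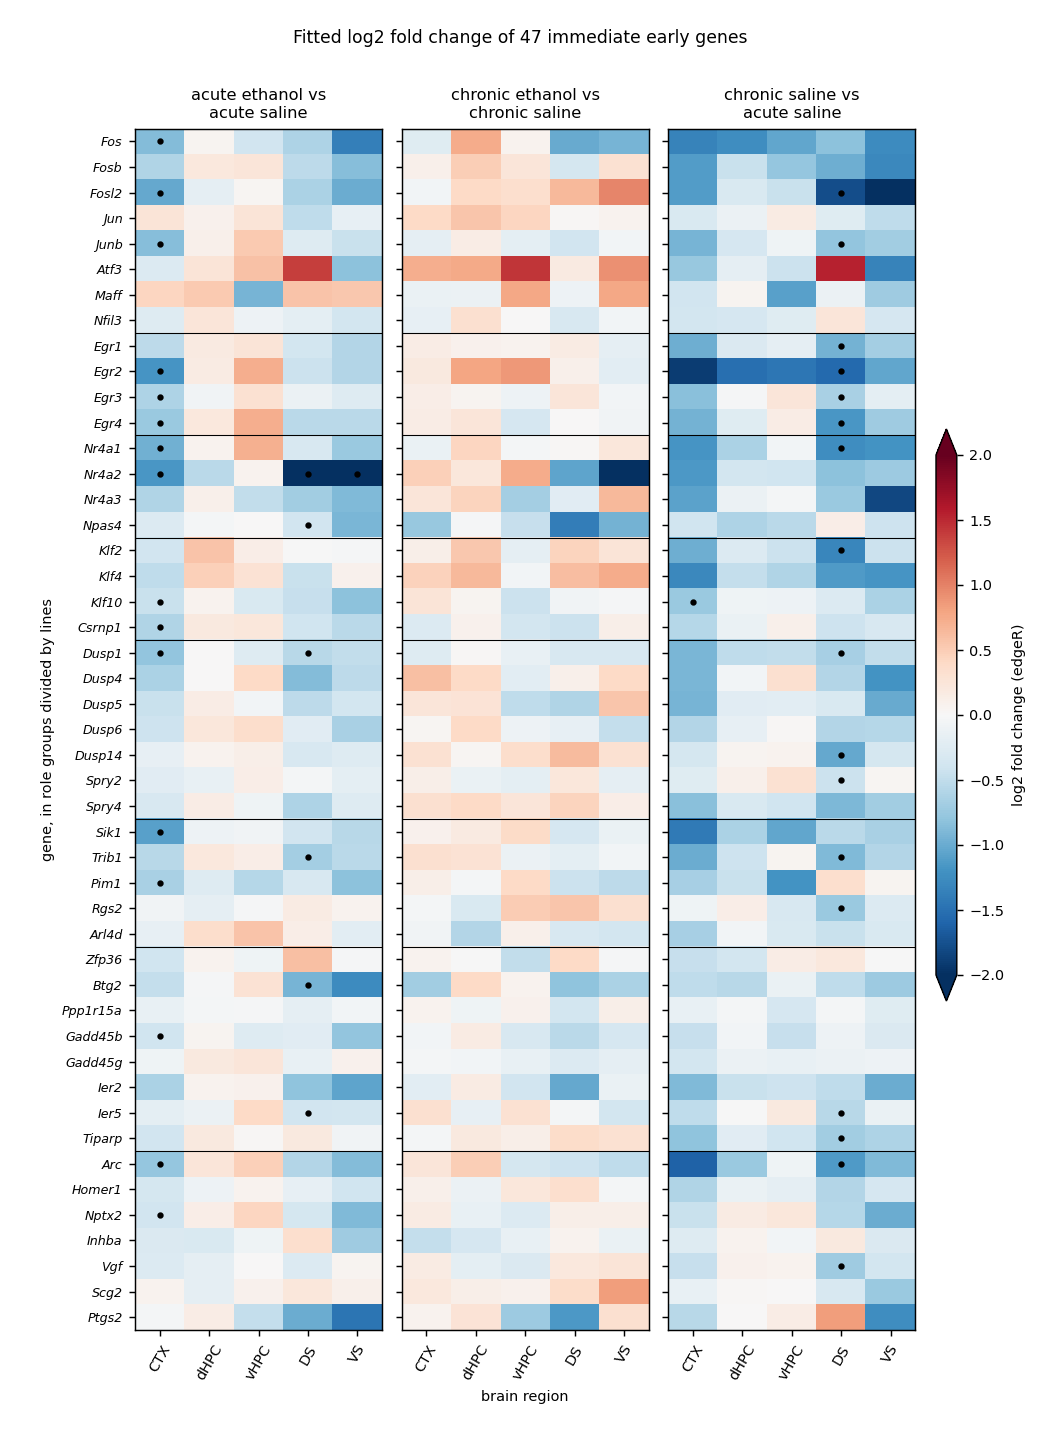
Fitted log2 fold change (edgeR, colour, limited to ±2.0) of the 47 immediate early genes in 5 brain regions for acute ethanol against acute saline (left), chronic ethanol against chronic saline (middle) and chronic saline against acute saline (right), with lines between role groups and a dot where the FDR was below 0.1. In the left panel 16 dots stand in CTX, 6 in DS and 1 in VS, the middle panel has 0, and the right panel has 1 in CTX and 17 in DS, all of them falls.

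Immediate early genes were lower in the cortex after acute ethanol, in the comparison that asks which transcripts differ after a single exposure. At 4 h after the injection 16 of the 47 genes had fallen relative to saline (edgeR), beside 1.17% of all 25905 genes tested that were called lower. No member rose: 2 had an unadjusted p below 0.05 and a positive change, and DESeq2 called 0 of them higher. The fitted change was negative for 44 members, with a median log2 fold change of -0.41 against 0.00241 over all genes. Every role group had a called member. Among the factors, 3 of 8 AP-1 and related genes fell, 3 of 4 Egr genes, 2 of 4 in the group of Nr4a receptors and Npas4, and 2 of 4 in the group of Klf factors and Csrnp1. Among the others, 1 of 7 phosphatases and Sprouty proteins fell, 2 of 5 kinases and G-protein regulators, 1 of 8 RNA-decay and stress genes, and 2 of 7 effectors. In 18 members every ethanol library was below every saline library, as in 9.6% of all genes, and in 1 every ethanol library was above. Because tissue was measured whole, fewer cells of a type and less RNA per cell cannot be told apart here or in the comparisons that follow.

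Fos, the AP-1 subunit most used to mark active neurons, was at 28.03, 65.7 and 50.7 CPM after saline and 28.9, 27.7 and 22.8 CPM after ethanol (log2 fold change -0.86, SE 0.21, FDR 0.0858). The lowest saline mouse lay within the ethanol group, which was narrow, while the other two saline mice were well above it. Fosl2 (Fra-2) went from 34.4, 55.6 and 75.1 to 32.3, 29.7 and 19.9 CPM (log2 fold change -1.02, SE 0.22, FDR 0.0538) with no overlap. Junb went from 64.3, 157 and 99.99 to 58.9, 63.7 and 54.5 CPM (log2 fold change -0.86, SE 0.21, FDR 0.089), and only the saline mouse numbered 2 came near the ethanol group. Fosb missed the threshold, with 13.8, 19.98 and 25.1 against 13.1, 13.8 and 11.9 CPM (log2 fold change -0.60, SE 0.16, FDR 0.11). Jun was fitted in the other direction at 53.8, 43.7 and 37.5 and 54.8, 50.2 and 56.7 CPM (log2 fold change 0.26, SE 0.10, FDR 0.311).

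Among the Egr factors, Egr3 had the smallest FDR of all members: it was at 216, 206 and 229 CPM after saline and 167, 133 and 123 CPM after ethanol (log2 fold change -0.62, SE 0.092, FDR 0.0112), 2 well separated and narrow groups. Egr2 had the largest fitted fall, from 9.60, 19.6 and 18.2 to 6.74, 9.21 and 5.01 CPM (log2 fold change -1.18, SE 0.24, FDR 0.0407). Egr4 fell as well (log2 fold change -0.75, SE 0.17, FDR 0.0602), with its lowest saline library just under the highest ethanol one. Egr1, the most abundant of the family, did not pass at 303, 503 and 562 against 419, 286 and 250.2 CPM (log2 fold change -0.52, SE 0.20, FDR 0.286), and the ethanol mouse numbered 2 lay inside the saline range. Of the nuclear receptors, Nr4a2 fell from 18.1, 15.7 and 25.6 to 12.1, 8.46 and 6.17 CPM without overlap (log2 fold change -1.16, SE 0.21, FDR 0.0284). Nr4a1 fell from 98.1, 235 and 186 to 97.1, 94.9 and 75.3 CPM (log2 fold change -0.96, SE 0.22, FDR 0.0617), the lowest saline value being next to the ethanol group. Npas4 was at 20.9, 35.6 and 22.7 and 20.9, 20.5 and 24.4 CPM and overlapped between the groups (log2 fold change -0.27, SE 0.16, FDR 0.521).

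Of the 12 phosphatases, Sprouty proteins, kinases and G-protein regulators 3 fell, Dusp1, Sik1 and Pim1. Dusp1, the nuclear MAP kinase phosphatase, was at 43.1, 83.6 and 58.7 CPM after saline and 35.6, 35.6 and 36.7 CPM after ethanol (log2 fold change -0.78, SE 0.16, FDR 0.0486). Sik1, the kinase that phosphorylates CREB coactivators, fell from 15.1, 23.7 and 29.5 to 12.3, 11.9 and 8.27 CPM (log2 fold change -1.08, SE 0.20, FDR 0.0309). The kinase Pim1 fell from 4.48, 4.06 and 4.27 to 2.98, 2.91 and 2.31 CPM (log2 fold change -0.65, SE 0.14, FDR 0.0577). All 3 genes were without overlap between groups. Dusp6, a cytoplasmic phosphatase of ERK, missed the threshold at 74.1, 111 and 96.1 and 81.2, 66.99 and 63.4 CPM (log2 fold change -0.41, SE 0.12, FDR 0.153). Smaller falls were fitted for Klf10 (log2 fold change -0.45, SE 0.11, FDR 0.089), the nuclear protein Csrnp1 (log2 fold change -0.60, SE 0.11, FDR 0.0284) and the stress protein Gadd45b (log2 fold change -0.39, SE 0.10, FDR 0.0973), again with no ethanol library above a saline one.

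Of the effectors, Arc, which regulates AMPA receptor endocytosis, was at 316, 468 and 531 CPM after saline and 335, 258 and 178 CPM after ethanol (log2 fold change -0.77, SE 0.20, FDR 0.0924), with overlap between the lowest saline and the highest ethanol library. Nptx2, a secreted pentraxin that clusters AMPA receptors, fell from 61.8, 57.003 and 54.3 to 50.8, 40.5 and 40.95 CPM (log2 fold change -0.39, SE 0.086, FDR 0.0564) without overlap. Homer1 (log2 fold change -0.35, SE 0.13, FDR 0.281) and Vgf (log2 fold change -0.27, SE 0.072, FDR 0.102) were not called, and neither was Btg2, which promotes mRNA deadenylation (log2 fold change -0.47, SE 0.25, FDR 0.479). Maff had the largest fitted rise, at 1.32, 1.05 and 1.15 and 1.55, 1.52 and 1.70 CPM, and was not called (log2 fold change 0.44, SE 0.20, FDR 0.386).

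DESeq2 called 13 of the members in this comparison, beside 3.69% of all genes, all of them lower. The calls rested on few mice. Without acute ethanol replicate 4, or without replicate 5, 1 member was called, and without acute saline replicate 4 or 6 the number was 2 or 7. Without either of the other mice 19 to 21 were called. With all 4 CTX groups in a joint fit, 0 members were called. Pallial neuron markers were level between the groups, at a summed CPM of 1640 to 1786 after saline and 1712 to 1749 after ethanol, with 1 of 6 called, higher. Oligodendrocyte markers summed to 1839 to 2082 CPM after saline and 2164 to 2854 CPM after ethanol, with 5 of 6 called higher. Endothelial markers summed to 157 to 165.6 and 134.2 to 145.2 CPM (2 of 6 called lower) and striatal projection neuron markers to 417 to 475.5 and 382.3 to 408.1 CPM (2 of 8 called lower). Their part in the result was not tested.

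**Figure D2:**
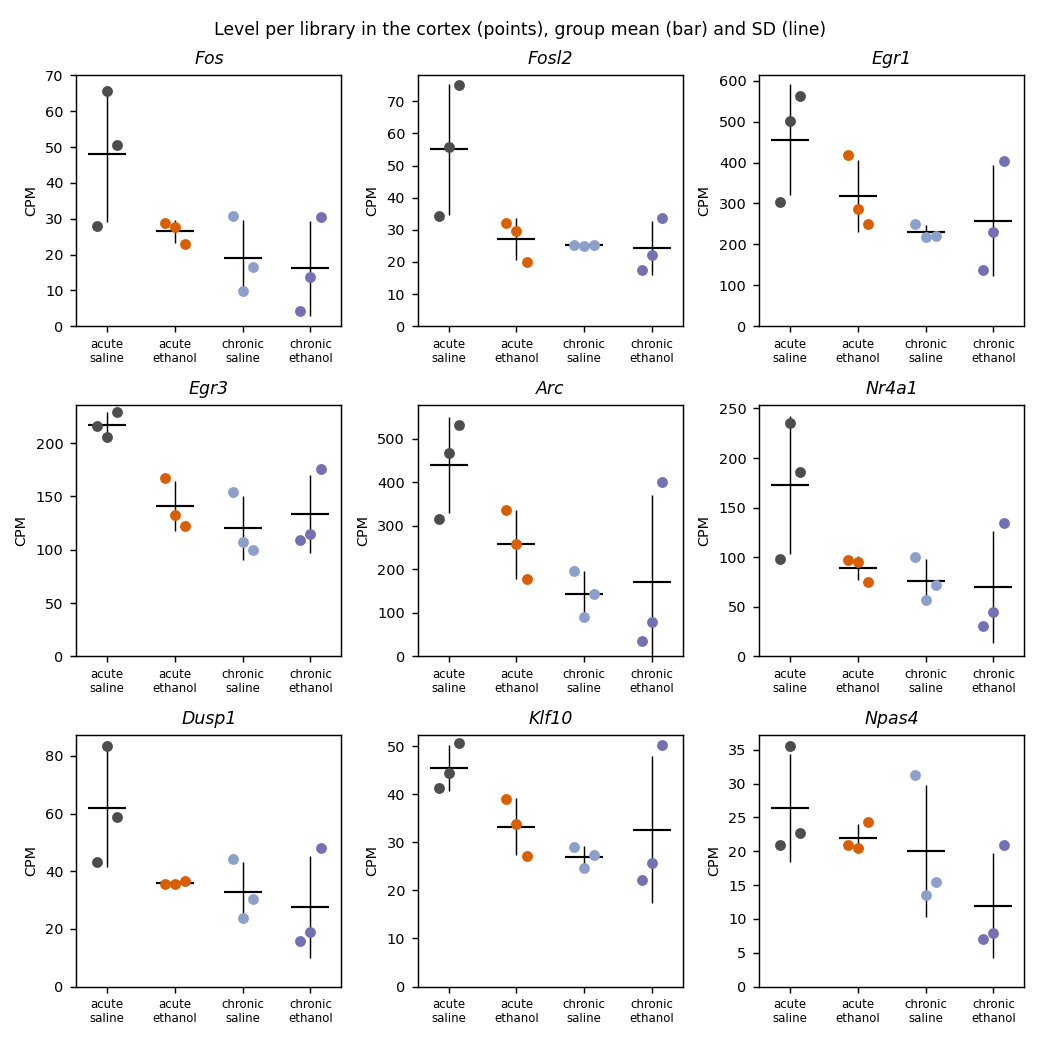
Level (CPM, linear axis from 0) of 9 immediate early genes in each cortex library (points) by group, with the group mean (bar) and SD (line), n = 3 mice per group. For Egr3 and Dusp1 the acute saline points stand above all other acute points, and for Arc and Fos the chronic points spread from near 0 up to the acute ethanol range or above it.

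In the dorsal striatum, 6 of the 47 genes fell after acute ethanol (edgeR), beside 3.1% of all genes called lower, and none rose, 1 having an unadjusted p below 0.05 and a positive change. The fitted change was negative for 39 members, the median log2 fold change was -0.36, and in 12 members every ethanol library was below every saline library, beside 9.85% of all genes. Nr4a2 fell most, from 10.3, 11.8 and 31.9 CPM after saline to 2.79, 4.79 and 1.58 CPM after ethanol (log2 fold change -2.67, SE 0.44, FDR 0.00442), and it was called with each library left out in turn. Btg2 went from 33.4, 17.02 and 18.01 to 11.5, 13.98 and 10.6 CPM (log2 fold change -0.93, SE 0.22, FDR 0.0409), with 1 saline mouse far above the rest. The pseudokinase Trib1 went from 17.5, 16.01 and 20.9 to 12.2, 12.4 and 9.92 CPM (log2 fold change -0.67, SE 0.15, FDR 0.0264), and Dusp1 went from 44.9, 51.8 and 53.8 to 40.6, 35.6 and 28.005 CPM (log2 fold change -0.55, SE 0.13, FDR 0.0324). Both were separated between the groups in every library.

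Npas4 was called by edgeR in this comparison only, at 32.2, 38.4 and 39.4 CPM after saline and 30.3, 29.7 and 24.9 CPM after ethanol (log2 fold change -0.39, SE 0.11, FDR 0.0836). Ier5, an inducible regulator of heat shock factor, was at 52.6, 64.2 and 70.9 and 45.05, 53.3 and 45.9 CPM (log2 fold change -0.39, SE 0.10, FDR 0.0665), with a slight overlap. Fos (log2 fold change -0.61, SE 0.21, FDR 0.158), Arc (log2 fold change -0.59, SE 0.22, FDR 0.2) and Egr1 (log2 fold change -0.36, SE 0.20, FDR 0.414) were not called in DS. In each of these 3 genes ethanol replicate 5 was the lowest of the group, as for Arc at 238, 234 and 112 CPM against 275, 245 and 349.7 CPM after saline. The largest fitted rise was that of Atf3, a stress-induced factor near the detection limit (0, 0.144 and 0.858 against 1.86, 0.777 and 0.351 CPM, log2 fold change 1.39, SE 0.93, FDR 0.533).

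DESeq2 called 10 members in DS, all lower, beside 6.4% of all genes. Without acute ethanol replicate 5 edgeR called 1 member (Nr4a2) and without acute saline replicate 6 it called 2, against 6 to 8 without any other mouse. Acute ethanol replicate 5 was also the deepest of the DS libraries, with 46564992 counts against 9689502 to 15342254 in the other acute ones, and the part of depth was not tested. With all 4 DS groups in a joint fit edgeR called 0. The pallial neuron markers moved with this comparison. All 6 fell, and their summed CPM was 358.6 to 464.3 after saline and 14.9 to 97.5 after ethanol, with none at 0 in a library. Of the 8 striatal projection neuron markers 7 rose, with a median log2 fold change of 0.28. The part of these shifts in the falls of the 6 members was not tested.

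In the ventral striatum, 1 of the 47 genes fell after acute ethanol, Nr4a2 (edgeR), beside 0.0399% of all genes called lower. Its level was 35.5, 23.3 and 72.1 CPM after saline and 8.17, 3.57 and 4.21 CPM after ethanol (log2 fold change -3.02, SE 0.43, FDR 0.0983), and every saline library was above every ethanol library. The median log2 fold change of the 47 members was -0.54, and the fitted change was negative for 41. Of these 41, 18 had an unadjusted p below 0.05 (all genes 4.08%) and 10 were without overlap (all genes 6.33%). DESeq2 called 6 members lower, beside 0.889% of all genes: Fos, Nr4a2, Npas4, Btg2, Nptx2 and the prostaglandin synthase Ptgs2. Fos was at 53.6, 33.6 and 55.6 CPM after saline and 13.9, 21.9 and 20.1 CPM after ethanol (log2 fold change -1.36, SE 0.22, FDR 0.13), and Btg2 at 30.1, 23.7 and 30.6 and 8.40, 12.5 and 14.7 CPM (log2 fold change -1.26, SE 0.20, FDR 0.13), both with separate groups. Ptgs2 was at 4.30, 5.96 and 8.998 and 2.88, 1.60 and 2.51 CPM (log2 fold change -1.46, SE 0.33, FDR 0.289). Maff had the largest fitted rise (log2 fold change 0.55, SE 0.65, FDR 0.914).

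The single edgeR call in VS was lost without acute saline replicate 4 or 6, or without acute ethanol replicate 3 or 5, and 6 members were called without acute ethanol replicate 2. Summed pallial markers were 319.2 to 813.8 CPM in acute saline and 14.6 to 117.9 CPM in acute ethanol VS libraries. Across the striatum Nr4a2 and these markers were high in the same libraries. In VS chronic saline, replicate 5 was at 53.8 CPM of pallial markers and 3.50 CPM of Nr4a2. Replicates 3 and 6 were at 705.4 and 421.4 CPM of markers and at 27.6 and 48.9 CPM of Nr4a2. In DS chronic ethanol, replicate 4 had the most pallial marker signal (143.2 CPM, against 18.2 to 49.8 in the others) and 16.4 CPM of Nr4a2 against 0.732 to 2.32. The part of pallial tissue in the level of Nr4a2 was not tested.

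**Figure D3:**
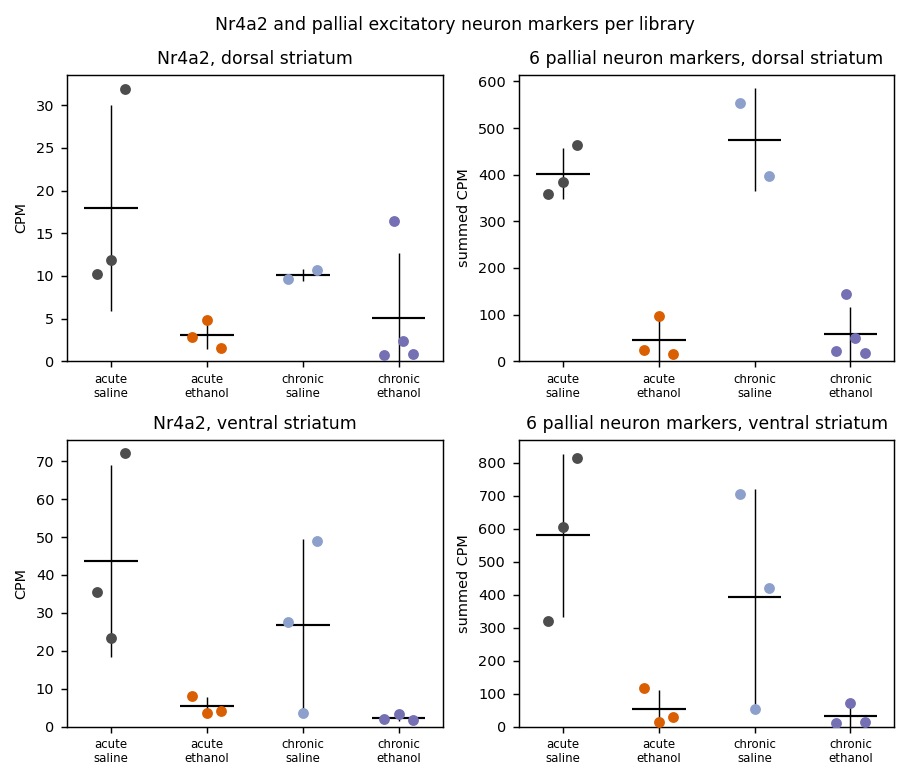
Nr4a2 (CPM, left) and the summed level of 6 pallial excitatory neuron markers (summed CPM, right) in each library of the dorsal (top) and ventral (bottom) striatum, by group, with group mean (bar) and SD (line). The markers summed to 358.6 to 464.3 CPM in acute saline and 14.9 to 97.5 CPM in acute ethanol DS libraries, and Nr4a2 was low in the libraries with few marker counts.

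In the dorsal hippocampus, edgeR called 0 of the 47 members after acute ethanol, beside 0.042% of all genes. An unadjusted p below 0.05 was reached by 4 members (all genes 7.88%), and DESeq2 called 0 (all genes 1.07%). The fitted change was positive for 32 members, with a median of 0.08. Fos was at 23.7, 17.7 and 10.3 CPM after saline and 9.14, 27.4, 18.1 and 17.03 CPM after ethanol (log2 fold change 0.06, SE 0.32, FDR 0.982), and Arc at 231, 181 and 99.7 and 126, 338, 151 and 189 CPM (log2 fold change 0.24, SE 0.33, FDR 0.916). The ethanol mouse numbered 3 was the highest for both. The largest fitted rise was that of the zinc-finger factor Klf2 (log2 fold change 0.58, SE 0.19, FDR 0.485) and the largest fitted fall that of Nr4a2 (log2 fold change -0.54, SE 0.29, FDR 0.705). Scg2 had the smallest FDR (log2 fold change -0.18, SE 0.058, FDR 0.474).

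In the ventral hippocampus edgeR also called 0 members after acute ethanol (all genes 0%). An unadjusted p below 0.05 was reached by 9 members (all genes 11.9%), 7 with a positive and 2 with a negative change. DESeq2 called 4 (all genes 2.9%), Egr4 and Nr4a1 higher and Ptgs2 and Nr4a3 lower. Nr4a1 was at 40.5, 40.2 and 55.9 CPM after saline and 92.6, 75.7 and 55.2 CPM after ethanol (log2 fold change 0.71, SE 0.20, FDR 0.255), with 1 ethanol library just inside the saline range. Egr4 was at 17.9, 15.2 and 29.1 and 41.4, 35.9 and 25.8 CPM (log2 fold change 0.73, SE 0.25, FDR 0.329). Ptgs2 was at 33.4, 35.5 and 33.1 and 22.5, 23.4 and 27.2 CPM (log2 fold change -0.48, SE 0.11, FDR 0.212), with no overlap. Maff had the largest fitted fall, at 1.89, 1.19 and 0.859 and 0.418, 0.931 and 0.702 CPM (log2 fold change -0.93, SE 0.52, FDR 0.516). Dentate granule neuron markers summed to 83.9 to 260.9 CPM after saline and 319.6 to 508.7 CPM after ethanol in these libraries. Thalamic neuron markers summed to 100.6 to 664 and 31.2 to 164.8 CPM and choroid plexus markers to 97 to 2351 and 77 to 1955 CPM, both with overlap. Their part in these values was not tested. A difference of the acute response between regions was not tested for any member.

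After chronic exposure edgeR called 0 of the 47 members in each of the 5 regions. It called 0% of all genes in 4 regions and 0.0555% in vHPC. An unadjusted p below 0.05 was reached by 4 members in VS (all genes 9.95%), 4 in DS (7.53%), 5 in CTX (10.4%), 10 in dHPC (8.23%) and 8 in vHPC (9.51%). DESeq2 called 2 members in VS (all genes 1.79%), 3 in dHPC (0.859%) and 0 in CTX (0.608%), DS (0.776%) and vHPC (1.08%). Median log2 fold changes lay between -0.06 in DS and 0.17 in dHPC. The median SE of a member's log2 fold change was 0.239 in CTX and 0.365 in DS, where the saline group has 2 mice, against 0.156 and 0.2 in the acute comparison.

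In CTX, Arc was at 196, 89.4 and 144 CPM in chronic saline and 34.4, 78.2 and 400.1 CPM in chronic ethanol mice (log2 fold change 0.24, SE 0.70, FDR 0.921), and Fos at 30.7, 9.87 and 16.6 and 4.34, 13.7 and 30.4 CPM (log2 fold change -0.24, SE 0.58, FDR 0.897). The ethanol mouse numbered 6 was above the saline range for Arc, and numbers 1 and 5 were below it. Jun had the smallest FDR of the members in CTX, with 36.04, 37.1 and 35.2 CPM in saline and 48.1, 41.2 and 54.7 CPM in ethanol mice and no overlap (log2 fold change 0.40, SE 0.11, FDR 0.443). Atf3 had the largest fitted rise (log2 fold change 0.73, SE 0.50, FDR 0.604) and Npas4 the largest fitted fall (log2 fold change -0.75, SE 0.42, FDR 0.546).

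In dHPC the 3 members that DESeq2 called were Klf4 and Jun, higher, and the small GTPase Arl4d, lower. Klf4 was at 3.01, 2.81 and 3.08 CPM in saline and 5.16, 3.96 and 4.87 CPM in ethanol mice (log2 fold change 0.65, SE 0.15, FDR 0.566). Jun was at 90.3, 62.2 and 90.9 and 121, 90.9 and 148 CPM (log2 fold change 0.56, SE 0.19, FDR 0.566), and Arl4d at 18.3, 15.7 and 14.3 and 8.68, 12.6 and 11.03 CPM (log2 fold change -0.58, SE 0.15, FDR 0.566). For Klf4 and Arl4d the groups did not overlap, and for Jun the highest saline and the lowest ethanol library were level at 90.9 CPM. In the same dHPC libraries 6 dentate granule neuron markers summed to 247.5 to 413.2 CPM in saline and 425.3 to 598.9 CPM in ethanol mice, and 6 oligodendrocyte markers to 6409 to 7382 and 5060 to 5852 CPM, with 0 of either list called. Striatal projection neuron markers summed to 304.5 to 2988 CPM in saline and 265.9 to 406.1 CPM in ethanol mice there. Choroid plexus markers summed to 40.5 to 2757 and 33.8 to 1619 CPM, and both of these lists overlapped between the groups. In vHPC 8 choroid plexus markers summed to 26.3 to 202.5 CPM in saline and 881.3 to 3167 CPM in ethanol mice, with 4 called higher. The part of these shifts in the chronic values was not tested. Egr2 had the largest fitted rise in dHPC (log2 fold change 0.78, SE 0.58, FDR 0.739) and vHPC (log2 fold change 0.87, SE 0.64, FDR 0.695) among members with a mean of at least 10 counts. Ptgs2 had the largest fitted fall in vHPC, at 32.8, 35.9 and 44.5 CPM in saline and 41.9, 14.2 and 13.04 CPM in ethanol mice (log2 fold change -0.72, SE 0.37, FDR 0.57), with the ethanol mouse numbered 4 inside the saline range. The G-protein regulator Rgs2 had the smallest FDR in vHPC (log2 fold change 0.51, SE 0.14, FDR 0.354).

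In DS, Npas4 was at 40.7 and 39.7 CPM in the 2 saline mice and 4.24, 27.01, 7.99 and 24.05 CPM in the 4 ethanol mice (log2 fold change -1.38, SE 0.57, FDR 0.631), the largest fitted fall there. All 4 ethanol values were below both saline values, and mice 1 and 5 were far below. Ptgs2 had the smallest FDR in DS (log2 fold change -1.15, SE 0.42, FDR 0.583). Fosl2 had the largest fitted rise, although its ethanol values of 7.76, 43.1, 6.35 and 42.996 CPM fell into a high and a low pair around the saline values of 23.01 and 7.97 CPM (log2 fold change 0.65, SE 0.80, FDR 0.891). In VS, DESeq2 called Scg2 higher, at 265, 355 and 269 CPM in saline and 476, 520.2 and 594 CPM in ethanol mice (log2 fold change 0.84, SE 0.13, FDR 0.237), with no overlap. It called Nr4a2 lower, at 27.6, 3.50 and 48.9 and 1.88, 3.20 and 1.62 CPM (log2 fold change -3.54, SE 0.78, FDR 0.237). The pallial markers moved with both chronic striatal comparisons, at a sum of 53.8 to 705.4 CPM in saline and 10.1 to 71.2 CPM in ethanol mice in VS, and 396.9 to 553.1 and 18.2 to 143.2 CPM in DS. All 6 were fitted lower in each, 0 were called, and their part in the values was not tested. Fosl2 had the largest fitted rise in VS (log2 fold change 0.98, SE 0.42, FDR 0.49). Without chronic saline replicate 5, the VS library with few pallial counts, edgeR called 3 members, 1 higher and 2 lower.

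The difference between the chronic and the acute response was tested as the interaction of paradigm and treatment, and edgeR called 0 members in every region (all genes 0% in each). In CTX 13 members had an unadjusted p below 0.05 (all genes 8.19%), all with a positive interaction, and 43 of 47 were fitted positive, with a median of 0.51. The number was 4 in VS (all genes 4.62%), 2 in DS (4.16%), 4 in vHPC (11.5%) and 2 in dHPC (4.48%). DESeq2 called 0 members in CTX (all genes 0.0791%), dHPC (0.00745%), DS (0.019%) and VS (0.0191%), and 1, Egr4, in vHPC (2.02%). For Egr4 in vHPC the fitted change was 0.73 in the acute and -0.33 in the chronic comparison (log2 fold change -1.06, SE 0.32, FDR 0.301 for their difference). In CTX the largest fitted interaction was that of Nr4a2, with -1.16 in the acute and 0.48 in the chronic comparison (log2 fold change 1.62, SE 0.59, FDR 0.6). The most negative there was that of Maff (log2 fold change -0.57, SE 0.37, FDR 0.667). The extremes elsewhere were Nr4a2 (0.77) and Arl4d (-0.94) in dHPC, Maff (1.71) and Egr4 in vHPC, Nr4a2 (1.56) and Atf3 (-1.21) in DS, and Fosl2 (1.96) and Nr4a2 (-0.51) in VS. The CTX fall after acute ethanol is therefore not shown to differ from the chronic response for any member by edgeR with the low-count filter. Without that filter edgeR called 23 members in the CTX interaction, all higher. The all-gene share of calls in that fit is not given, so this count is not read as a result about the members.

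The saline mice of the chronic and acute paradigms were compared to see how immediate early genes stood after 10 saline injections and after 1. These groups are the controls of the comparisons above and are used again here, and any difference in cohort or day between the paradigms cannot be told apart from the number of injections. In CTX all 47 members were fitted lower after 10 injections, with a median log2 fold change of -0.74 against 0.00183 over all genes. An unadjusted p below 0.05 was reached by 39 of them (3.72% of all genes were lower at that level), and 29 had no overlap (6.16% of all genes). At FDR below 0.1 edgeR called 1 member lower, Klf10 (all genes 0.00772%), and DESeq2 called 22 (all genes 0.668%).

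Klf10 was at 41.3, 44.5 and 50.7 CPM after 1 and 29.1, 24.7 and 27.4 CPM after 10 saline injections (log2 fold change -0.74, SE 0.092, FDR 0.0886). Arc was at 316, 468 and 531 and 196, 89.4 and 144 CPM (log2 fold change -1.61, SE 0.25, FDR 0.134). Sik1 was at 15.1, 23.7 and 29.5 and 9.92, 7.01 and 8.71 CPM (log2 fold change -1.41, SE 0.21, FDR 0.134), and Fosb at 13.8, 19.98 and 25.1 and 11.997, 7.74 and 7.25 CPM (log2 fold change -1.12, SE 0.22, FDR 0.256), each without overlap. Egr2 had the largest fitted fall (log2 fold change -1.89, SE 0.52, FDR 0.481), and Fos was at 30.7, 9.87 and 16.6 CPM after 10 injections, its highest value just inside the acute range (log2 fold change -1.33, SE 0.37, FDR 0.481). Without chronic saline replicate 3, the mouse with the highest levels of its group, edgeR called 28 members lower, and without acute saline replicate 2 it called 13. Without acute saline replicate 4, chronic saline replicate 5 or chronic saline replicate 6 it called 0. All-gene shares of calls in these fits are not given, so the counts describe only how far the result rests on single mice. Set side by side, Arc averaged 438.5 ± 110.5 CPM in acute saline, 257.0 ± 78.7 in acute ethanol, 143.0 ± 53.1 in chronic saline and 170.9 ± 199.7 in chronic ethanol CTX libraries (SD, n = 3 each).

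In DS, 17 members were lower in the 2 chronic saline mice than in the 3 acute saline mice (edgeR, all genes called lower 1.28%), and 29 were without overlap and lower (all genes 16.9%). DESeq2 called 22, all lower (all genes 4.39%). All 4 Egr factors fell. Egr2 fell most, from 31.04, 25.2 and 40.5 to 13.8 and 7.87 CPM (log2 fold change -1.55, SE 0.26, FDR 0.0283), then Egr4 (log2 fold change -1.17, SE 0.21, FDR 0.0361), Egr1 (log2 fold change -0.95, SE 0.19, FDR 0.0472) and Egr3 (log2 fold change -0.65, SE 0.11, FDR 0.0334). Arc went from 275, 245 and 349.7 to 147 and 117 CPM (log2 fold change -1.13, SE 0.15, FDR 0.0119) and Vgf from 238, 211 and 243 to 139.6 and 139 CPM (log2 fold change -0.72, SE 0.094, FDR 0.0105). Both groups were narrow and apart for these genes.

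Of the other factors, Fosl2 (log2 fold change -1.77, SE 0.42, FDR 0.0759), Nr4a1 (log2 fold change -1.24, SE 0.22, FDR 0.0334), Junb (log2 fold change -0.78, SE 0.15, FDR 0.0437) and Klf2 (log2 fold change -1.31, SE 0.30, FDR 0.0668) fell. The regulators that fell were Dusp1, Dusp14, Spry2, Trib1 and Rgs2, with log2 fold changes between -1.02 and -0.43, and so did Ier5 and the ADP-ribosyltransferase Tiparp. Rgs2, which limits signalling through Gq-coupled receptors, was at 122, 160.1 and 180.5 CPM in acute and 95.8 and 87.8 CPM in chronic saline mice (log2 fold change -0.74, SE 0.15, FDR 0.0437). Npas4 did not follow, at 32.2, 38.4 and 39.4 and 40.7 and 39.7 CPM (log2 fold change 0.14, SE 0.12, FDR 0.63). Ptgs2 had the largest fitted rise among members with a mean of at least 10 counts (log2 fold change 0.84, SE 0.45, FDR 0.426).

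The DS result rests on 5 libraries. It gave 4 calls without acute saline replicate 4 or 6, 10 without acute saline replicate 2 or chronic saline replicate 6, and 21 without chronic saline replicate 3. With either chronic saline mouse left out, the lone remaining mouse is assumed to vary like the acute saline mice. With the incomplete saline library kept, 0 members were called. Choroid plexus markers moved with it. All 8 were higher in chronic saline, and they summed to 11.5 to 284.2 CPM in acute and 1883 to 7064 CPM in chronic saline DS libraries. In CTX the same markers summed to 8.84 to 124.4 CPM in acute and 12.8 to 16 CPM in chronic saline. Striatal projection neuron markers summed to 6088 to 6997 CPM in acute saline and to 4534 and 6438 CPM in the 2 chronic saline DS libraries, with overlap. The part of either marker list in the DS values was not tested.

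**Figure D4:**
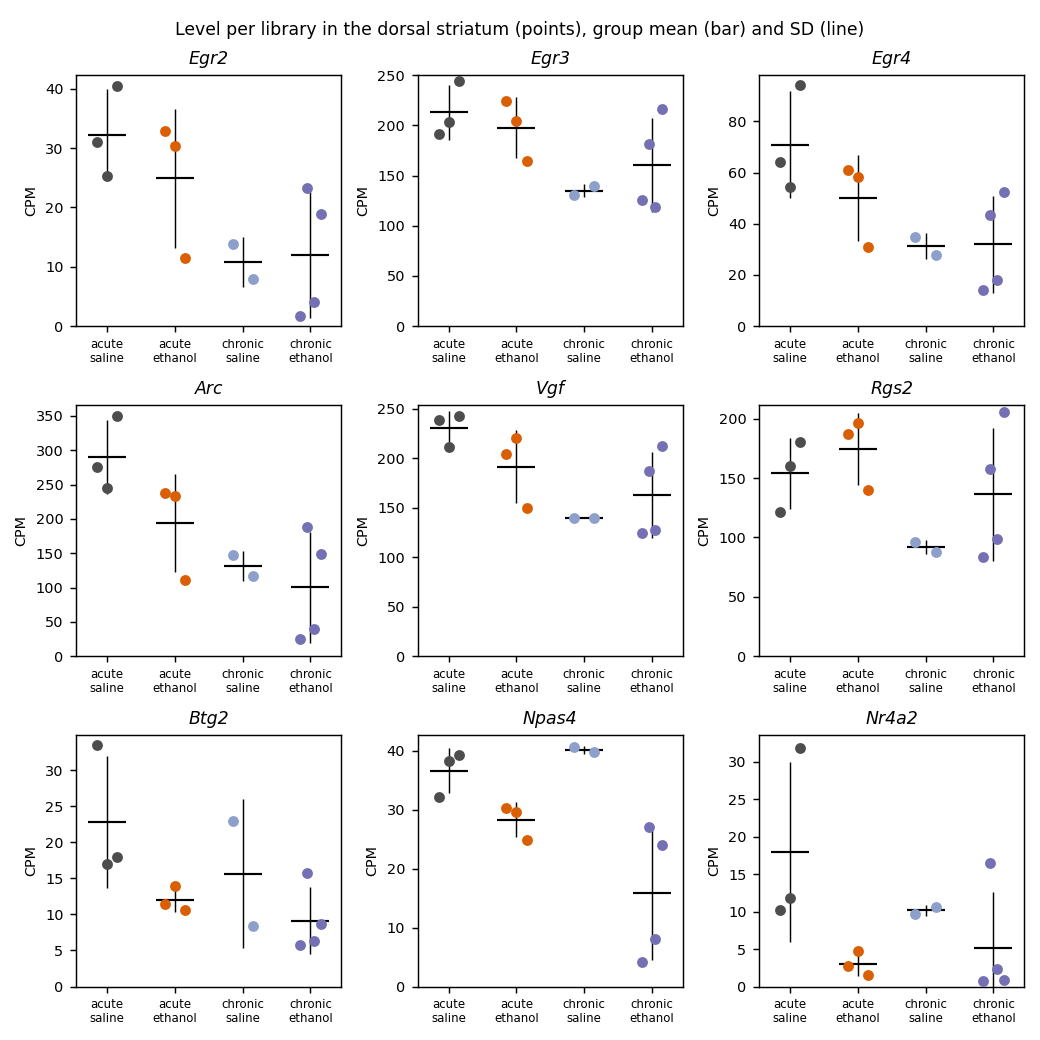
Level (CPM, linear axis from 0) of 9 immediate early genes in each dorsal striatum library (points) by group, with the group mean (bar) and SD (line), n = 3, 3, 2 and 4 mice from left to right. Egr2, Egr3, Egr4, Arc, Vgf and Rgs2 are lower in both chronic saline mice than in all 3 acute saline mice, and Btg2 and Nr4a2 are lower in acute ethanol than in acute saline. The chronic ethanol points spread between mice, and for Nr4a2 replicate 4 stands apart from the others.

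Between the saline groups of the remaining regions edgeR called 0 members, in dHPC beside 0.00382% of all genes and in vHPC and VS beside 0%. Members with an unadjusted p below 0.05 and a negative change numbered 9 in dHPC (all genes 3.87%) and 16 in VS (2.68%), while 7 passed in either direction in vHPC (11%). DESeq2 called 1 in dHPC (Egr2, all genes 0.55%), 2 in vHPC (Fos and Sik1, 1.96%) and 3 in VS (Scg2, Fosl2 and the phosphatase Dusp4, 0.114%), all lower. In VS 45 of 47 members were fitted lower, with a median of -0.63, and Fosl2 went from 55.03, 39.9 and 93.8 to 24.4, 11.96 and 9.37 CPM with no overlap (log2 fold change -2.04, SE 0.38, FDR 0.82). Sik1 in vHPC was at 14.5, 10.9 and 17.6 CPM in acute and 6.21, 7.86 and 6.86 CPM in chronic saline (log2 fold change -1.04, SE 0.21, FDR 0.223), also without overlap. In vHPC the median was -0.18 and in dHPC -0.23. Egr2 had the largest fitted fall in vHPC (log2 fold change -1.45, SE 0.64, FDR 0.451) and dHPC (log2 fold change -1.51, SE 0.43, FDR 0.572), and Klf4 the smallest FDR in dHPC (log2 fold change -0.48, SE 0.13, FDR 0.555). The largest fitted rises were those of Dusp4 in vHPC (log2 fold change 0.32, SE 0.14, FDR 0.451), Nptx2 in dHPC (log2 fold change 0.16, SE 0.17, FDR 0.841) and Pim1 in VS (log2 fold change 0.05, SE 0.28, FDR 0.997). Dentate granule neuron markers summed to 83.9 to 260.9 CPM in acute and 271 to 498.1 CPM in chronic saline vHPC libraries, and oligodendrocyte markers to 8250 to 9471 and 6409 to 7382 CPM in dHPC. In VS oligodendrocyte markers summed to 4853 to 5221 CPM in acute and 5438 to 7490 CPM in chronic saline. No gene of these lists was called in these comparisons. In vHPC thalamic neuron markers summed to 100.6 to 664 CPM in acute and 49.3 to 126.7 CPM in chronic saline. Choroid plexus markers there summed to 97 to 2351 and 26.3 to 202.5 CPM, and both lists overlapped between the groups. The part of these marker lists in the values was not tested.

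Immediate early genes varied between mice of the same group more than most genes did. The median within-group SD of a member on the log2 scale was 0.36 in CTX, against 0.204 over all genes tested. In the hippocampus it was 0.296 (dHPC, all genes 0.197) and 0.342 (vHPC, 0.263), and in the striatum 0.447 (DS, 0.258) and 0.47 (VS, 0.267). Between 37 and 43 of the 47 members lay above the all-gene median in a region. Egr2 varied most in CTX, dHPC, vHPC and VS (SD 1.25, 1.01, 0.866 and 1.44) and Nr4a2 in DS (1.34), while Scg2 varied least in CTX, dHPC, vHPC and VS (0.0795 to 0.192).

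Several mice deviated in the same direction in all of their regions. For each library the median over the 47 members of the log2 CPM minus the mean of its own group was taken, a description with no test, in which libraries of a mouse share that animal. Mouse 6 of chronic ethanol was above 0 in all 5 of its regions (0.0712 to 0.526). Mice 4 of chronic ethanol (0.101 to 0.389), 3 of chronic saline (0.112 to 0.34), 3 of acute ethanol (0.108 to 0.28) and 6 of acute saline (0.122 to 0.268) were above 0 in all 4 of theirs. Mouse 1 of chronic ethanol was below 0 in its 4 regions (-0.402 to -0.293), as were mouse 5 of chronic ethanol (-0.374 to -0.143) and mouse 5 of chronic saline (-0.461 to -0.1) in their 3. For chronic ethanol mouse 1, 2 to 9 of the 47 members per region were above the mean of the group, and for mouse 6, 31 to 44 were. Values of 1 mouse in different regions are therefore not independent, and the comparisons in the 5 regions use overlapping sets of animals.

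**Figure D5:**
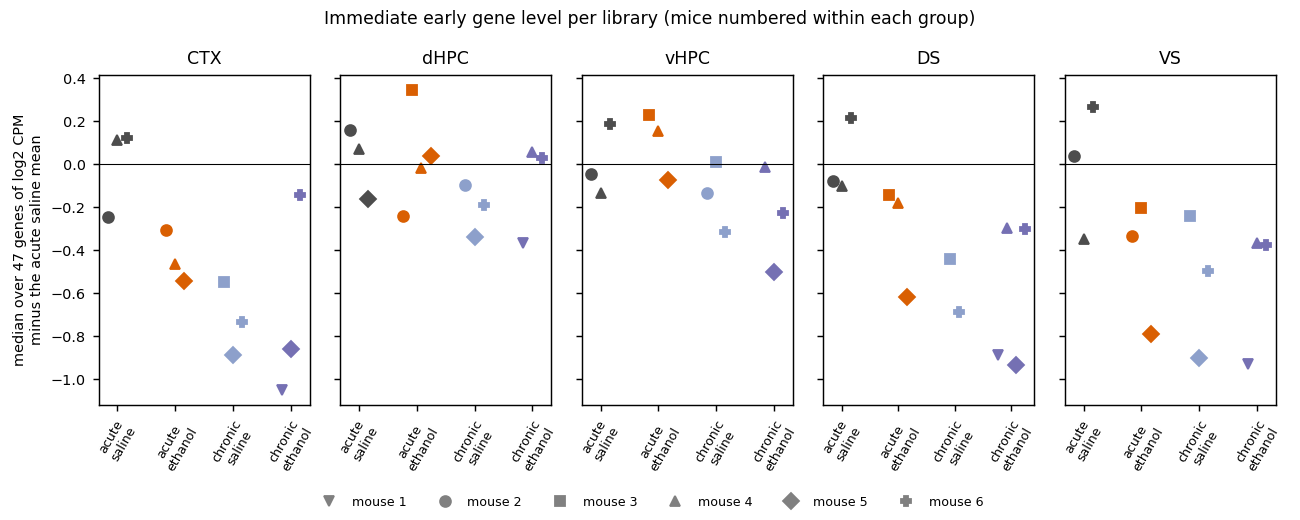
Median over the 47 genes of the log2 CPM minus the acute saline mean (vertical axis, log2 units) for each library in the 5 regions, with colours for the 4 groups and symbols for the mouse number within a group. Acute ethanol libraries in CTX lie between -0.545 and -0.308, chronic saline CTX libraries between -0.888 and -0.548, and chronic ethanol CTX libraries between -1.05 and -0.145.

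Homer1 and Fosb make a short isoform with activity, and their isoforms were read from the transcript counts, in which isoforms of a gene share reads. Homer1-204, which ends before the last exons of the gene, had a log2 fold change of -0.47 (SE 0.16, FDR 0.261, edgeR over 129926 isoforms) after acute ethanol in CTX, and the long form Homer1-202 had -0.16 (SE 0.085, FDR 0.525). In DS the values were -0.33 (SE 0.15) and -0.04 (SE 0.083), and neither was called in any region. Of the 7 Fosb isoforms 5 were called lower after acute ethanol in CTX (edgeR, log2 fold changes -0.63 to -0.61), beside 1.24% of all isoforms called in either direction. These 5 averaged 803.2 to 844.8 counts and share reads, so they are not independent calls. The short form was not singled out among the Fosb isoforms. The Fosb gene count gave an FDR of 0.11 in the same comparison.

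Genes of the same signalling pathways that are not members were counted for context. Of 18 other activity-regulated genes, 1 fell after acute ethanol in CTX (all genes called lower 1.17%), the AP-1 subunit Jund (log2 fold change -0.41, SE 0.065, edgeR FDR 0.0173). Bdnf had -0.46 (SE 0.12, FDR 0.1004), just past the threshold. In DS 6 of 17 tested fell (all genes called lower 3.1%), among them Bdnf (-3.06, SE 0.40, FDR 0.000819) and Nrn1 (-3.10, SE 0.33, FDR 0.000198). The pallial neuron markers also fell in this comparison, and their part in the 6 falls was not tested. Of 13 genes that carry the activity signal to transcription, 1 was called in CTX (Mef2a, higher) and 2 in DS (Camk4, higher, and Mef2c, lower). Over all genes edgeR called 515 of 25905 in CTX and 1056 of 20495 in DS in either direction. Of 10 glucocorticoid-induced genes, 5 rose in CTX and 7 in DS, beside 212 of 25905 and 421 of 20495 genes called higher. In dHPC, vHPC and VS all 10 were fitted higher without an edgeR call, where edgeR called 7, 0 and 0 of all genes higher. Their summed CPM still did not overlap there. It was 473.6 to 605.2 after saline and 672 to 917.8 after ethanol in dHPC, 549.9 to 596.6 and 736.3 to 863.7 in vHPC, and 415.8 to 489.4 and 502.5 to 811.8 in VS. Fkbp5, a co-chaperone induced by the glucocorticoid receptor, rose by 0.93 on the log2 scale in CTX (SE 0.13, FDR 0.0103) and by 0.80 in DS (SE 0.088, FDR 0.000253).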

How the data were processed

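Poly(A) RNA of 62 libraries from 16 mice was sequenced. The authors used cutadapt 5.0 for trimming, STAR 2.7.10a for alignment (GRCm39) and featureCounts 2.0.6 with Ensembl annotation for counting exon overlaps as reverse-stranded, and they let a read that maps to several places or overlaps several features add to all of them. Raw counts per gene and per isoform were deposited, with no normalization. Of deposited counts between 5 and 50, 62.6% to 85.3% per region were even, so the ends of a pair may be counted separately and a count may stand for fewer fragments. A rerun with each count divided by 2 was chosen after seeing the data. Total counts ran from 8149628 to 71164766 per library. The libraries carry no molecular identifiers, so reads can be copies of the same molecule.

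The main test of each comparison was the quasi-likelihood F test of edgeR 4.0.16 (run in R 4.3.3 with limma 3.58.1), with TMM normalization and a prior count of 0.125. Genes needed 5 counts or more in 2 or more samples of a group. The model was fitted to the groups of that comparison within a region, with Benjamini-Hochberg adjustment over all genes tested. Alternatives were the Wald test of DESeq2 1.42.0 (the study's tool), edgeR with that tool's size factors, all genes without a filter, a filter of 10 counts in each sample, a joint fit of the 4 groups of a region, a replicate block, the incomplete DS library kept, and each library left out in turn. CPM were computed over all libraries of a region without the incomplete one. Replicate numbers were checked for pairing and did not pair samples. Samples of a group are different mice by their labels, and no 2 libraries were identical. The scripts were tested on simulated data with known changes. Tables were also read with pandas 2.3.3 under Python 3.11.15, and plots drawn with matplotlib 3.10.9.

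The members, gene lists, marker lists and tests were chosen with earlier results of these data known. A gene of the marker lists is not reported here and was left out of the summed levels. Named genes are every member called by edgeR in any comparison, the largest fitted rise and fall of each comparison among members averaging 10 counts or more, and always Fos, Fosb, Junb, Egr1, Egr2, Arc, Nr4a1, Npas4, Dusp1, Dusp6, Btg2, Sik1, Homer1, Nptx2 and Vgf. Some members that DESeq2 called, or that had the smallest FDR of a comparison without edgeR calls, were added after their values were seen. Promoter sequences are from RefSeq on GRCm38.p6 and were matched by gene symbol, and no promoter was given for 11 members, among them Arc and Egr1.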

Additional observations from a re-analysis of the deposited data

Results flagged for a closer look

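Groups of 4 mice exist for acute ethanol in dHPC and chronic ethanol in DS, and in them 94 combinations of group and member were tested for a library far from the others. Dixon's test at the 95% level flagged 3 of the 94. Chance alone flags about 1 in 20 combinations, so this is no more than chance would flag. Nr4a2 was at 56.1 CPM in acute ethanol dHPC replicate 3, with the nearest library at 26.2 CPM. Arl4d was at 12.0 CPM in acute ethanol dHPC replicate 2, with the nearest at 24.3 CPM. Nr4a2 was at 16.4 CPM in chronic ethanol DS replicate 4, with the nearest at 2.32 CPM, and this library also had the highest pallial neuron marker sum of its group, 143.2 CPM, whose part in the value was not tested.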

How the results depend on the processing

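The number of members called depended on the test and on single mice, while 0 of the fitted directions of a called member reversed under any alternative. DESeq2 called 22 members instead of 1 in the CTX comparison of saline groups, 10 instead of 6 in DS acute and 6 instead of 1 in VS acute, and where edgeR called 0 it called 3 in dHPC chronic, 1 between the dHPC saline groups, 4 in vHPC acute, 2 between the vHPC saline groups, 1 in the vHPC interaction, 2 in VS chronic and 3 between the VS saline groups. Without the low-count filter edgeR called 36 in CTX acute, 33 between CTX saline groups and 23 in the CTX interaction. In vHPC it called 1, 5, 2 and 4 (acute, chronic, saline groups, interaction), in DS 27, 1, 31 and 7 and in VS 21, 3, 12 and 7. The share of all genes called in the unfiltered fits is not given, so these counts are not read as results about the members. The cause was not tested. With all 4 groups of a region in a joint fit edgeR called 0 in CTX acute, DS acute, VS acute and between the CTX and DS saline groups. A minimum of 10 counts in every sample gave 0 between the CTX saline groups and in VS acute, and keeping the incomplete DS library gave 0 between the DS saline groups, with all genes or only those it covers. Halved counts gave 18 in CTX acute and 18 between the DS saline groups, with no other number changed.

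Leaving out each library in turn gave 1 to 21 calls in CTX acute, 0 to 28 between the CTX saline groups, 1 to 8 in DS acute, 4 to 21 between the DS saline groups, 0 to 6 in VS acute, 0 to 3 in vHPC acute, 0 to 2 in vHPC chronic, 0 to 3 between the vHPC saline groups, 0 to 2 in the vHPC interaction, 0 to 3 in VS chronic and 0 to 1 between the VS saline groups, and 0 in the other comparisons. All-gene shares of calls are not given for the fits with a library left out. Some groups share replicate numbers. Same-numbered samples deviated from their group means with correlations between -0.16 and 0.0989, so the numbers were not taken to pair the samples. With a replicate block 14 members were called in CTX acute and 2 in CTX chronic, and 0 in each other comparison where the block could be fitted. All-gene shares are not given for the block fits either. With 2 to 4 mice a group and the spread between mice given in the report, a member that was not called is not shown to be unchanged.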
